A study of Mus musculus with 8 samples.

Results

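The ATAC-seq summits at 10 genes of de novo lipogenesis and triglyceride synthesis were examined in cold-exposed BAT: Acly, Acaca, Acacb, Fasn, Scd1, Srebf1, Mlxipl, Dgat1, Dgat2 and Gpat3. A summit is the highest point of a called ATAC-seq peak. A summit was taken as a member when it lay in the body of one of these genes or within 50 kb of a transcription start site (TSS) of one of its RefSeq mRNAs, which gave 145 of the 32173 summits in the authors' deposited list. The rule takes genes by their function and uses no measured value, but the set was proposed with earlier results of these data known. Curated mRNAs were used unless stated otherwise, and 21000 genes have one.

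BAT nuclei came from 2 WT and 2 Dot1L-BKO mice at 12 weeks of age on a chow diet, all kept at 4°C for 4 h before the tissue was taken. The WT mice carried the floxed Dot1l allele without Cre, and the Dot1L-BKO mice carried it together with a Ucp1-Cre transgene, which directs the deletion of Dot1l to Ucp1+ cells. How complete the deletion was, and whether the other cells of the tissue kept Dot1l, was not measured here. Both genotypes share the floxed allele and the cold exposure. The deposited list is a single list named WT against Dot1L-BKO. It gives each summit 1 value, the −log10 of the MACS2 q-value, called the score here, and no value for any library. The values below therefore come without replicate error and without a known sequencing depth, and no difference between the genotypes could be measured at any of the genes. Which libraries, if any, were the control for peak calling is not known here, so a score cannot be read as openness in either genotype. In whole tissue, fewer cells of a type and less open chromatin per cell cannot be told apart. The scores fall on repeated values, with 1942 of all summits and 17 of the 145 at a score of 4.16, and small differences between low scores carry no order.

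De novo lipogenesis builds fatty acids from citrate. Acly splits citrate in the cytosol to give acetyl-CoA, the acetyl-CoA carboxylases Acaca and Acacb turn it into malonyl-CoA, and Fasn joins these units into palmitate. Scd1 introduces a double bond, and Gpat3 and the diacylglycerol acyltransferases Dgat1 and Dgat2 place the acyl chains on glycerol at the first and last steps of triglyceride synthesis. Srebf1 encodes SREBP-1, which insulin activates and which binds sterol regulatory elements, often beside the CCAAT-binding factor NF-Y. Mlxipl encodes ChREBP, which responds to glucose and binds E-boxes with Mlx. BAT is known to express this program strongly and to raise both fatty acid synthesis and oxidation in the cold. Whether 4 h of cold did so in these mice was not tested.

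The sequences at the promoter summits of Fasn, Srebf1 and Acly, and at the strongest summit of the Srebf1 window, which lies in an intron, are given here, taken from the reference genome (GRCm38, which is mm10) and written along the strand of the gene. The summit is the middle base. Capitals mark the letters CCAAT (NF-Y) and TCACNCCAC (SREBP) on either strand.
Fasn promoter, chr11:120824561-120824661, minus strand: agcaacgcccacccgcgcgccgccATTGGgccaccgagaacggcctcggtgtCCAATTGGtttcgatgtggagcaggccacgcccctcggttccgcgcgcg
Srebf1 most upstream promoter, chr11:60222668-60222868, minus strand: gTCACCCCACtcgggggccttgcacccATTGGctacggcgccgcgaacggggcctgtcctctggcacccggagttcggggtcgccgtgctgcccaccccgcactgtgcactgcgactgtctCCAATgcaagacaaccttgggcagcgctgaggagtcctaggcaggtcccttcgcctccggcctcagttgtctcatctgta
Srebf1 intron summit, chr11:60209298-60209398, minus strand: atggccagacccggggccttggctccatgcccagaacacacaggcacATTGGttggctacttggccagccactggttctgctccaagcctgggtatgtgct
Acly promoter, chr11:100528152-100528252, minus strand: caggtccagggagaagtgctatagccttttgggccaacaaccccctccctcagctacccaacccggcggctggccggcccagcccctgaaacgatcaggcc

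At Fasn the summit lay 64 bp upstream of the TSS, and CCAAT occurred 3 times in the printed window, on both strands, with the nearest copy starting 2 bases after the summit and overlapping the next. The Srebf1 summit 187 bp upstream of the most upstream curated TSS held the SREBP pattern, as TCACCCCAC, from 99 to 91 bases before the summit, and 2 copies of CCAAT, 1 on each strand. In intron 1 of the Srebf1 isoform c mRNA, a CCAAT copy on the opposite strand spanned the summit itself. None of the 9 patterns searched was found in the printed Acly window, and GGGCGG lay outside it, within 100 bp of the summit. These matches describe the letters and do not show binding.

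Markers of cell types were examined first. All 10 adipocyte markers, among them Ucp1, Cidea, Adipoq and Plin1, had a summit within 1 kb of a TSS, called a promoter summit below, with a median score of 22.0. Such a summit was found at 1 of 5 endothelial markers (Cdh5, score 2.59), 1 of 5 macrophage and leukocyte markers (Cd68, 2.15), 1 of 5 hepatocyte markers (Apoa1, 3.32), 0 of 5 skeletal muscle markers and 0 of 3 neuronal markers. Over all genes the share with such a summit was 45.2%. Because the control for peak calling is not known, these counts cannot show which cells the tissue held. The part of other cell types in the summits of the lipogenic genes was not tested.

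Of the 10 genes, 7 had a promoter summit (Acly, Fasn, Scd1, Srebf1, Dgat1, Dgat2 and Gpat3), and Acaca, Acacb and Mlxipl had none. Over all genes the share was 45.2%. A promoter summit with a score of at least 10 was present at 6 of the 10, against 23.5% of all genes, and Srebf1 was the gene that dropped out. The 7 promoter scores had a median of 21.6 and ran from 7.58 (Srebf1) to 65.4 (Dgat1). Among all 9485 genes with a promoter summit the median was 10.7, with quartiles of 5.55 and 20.9. All 10 genes had a summit somewhere in the window of the rule, as had 72.5% of all genes, and 9 had at least 1 in the gene body, against 39.7% of all genes. Since the set was proposed with earlier results known, these shares are a description and no test was made on them.

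**Figure D1:**
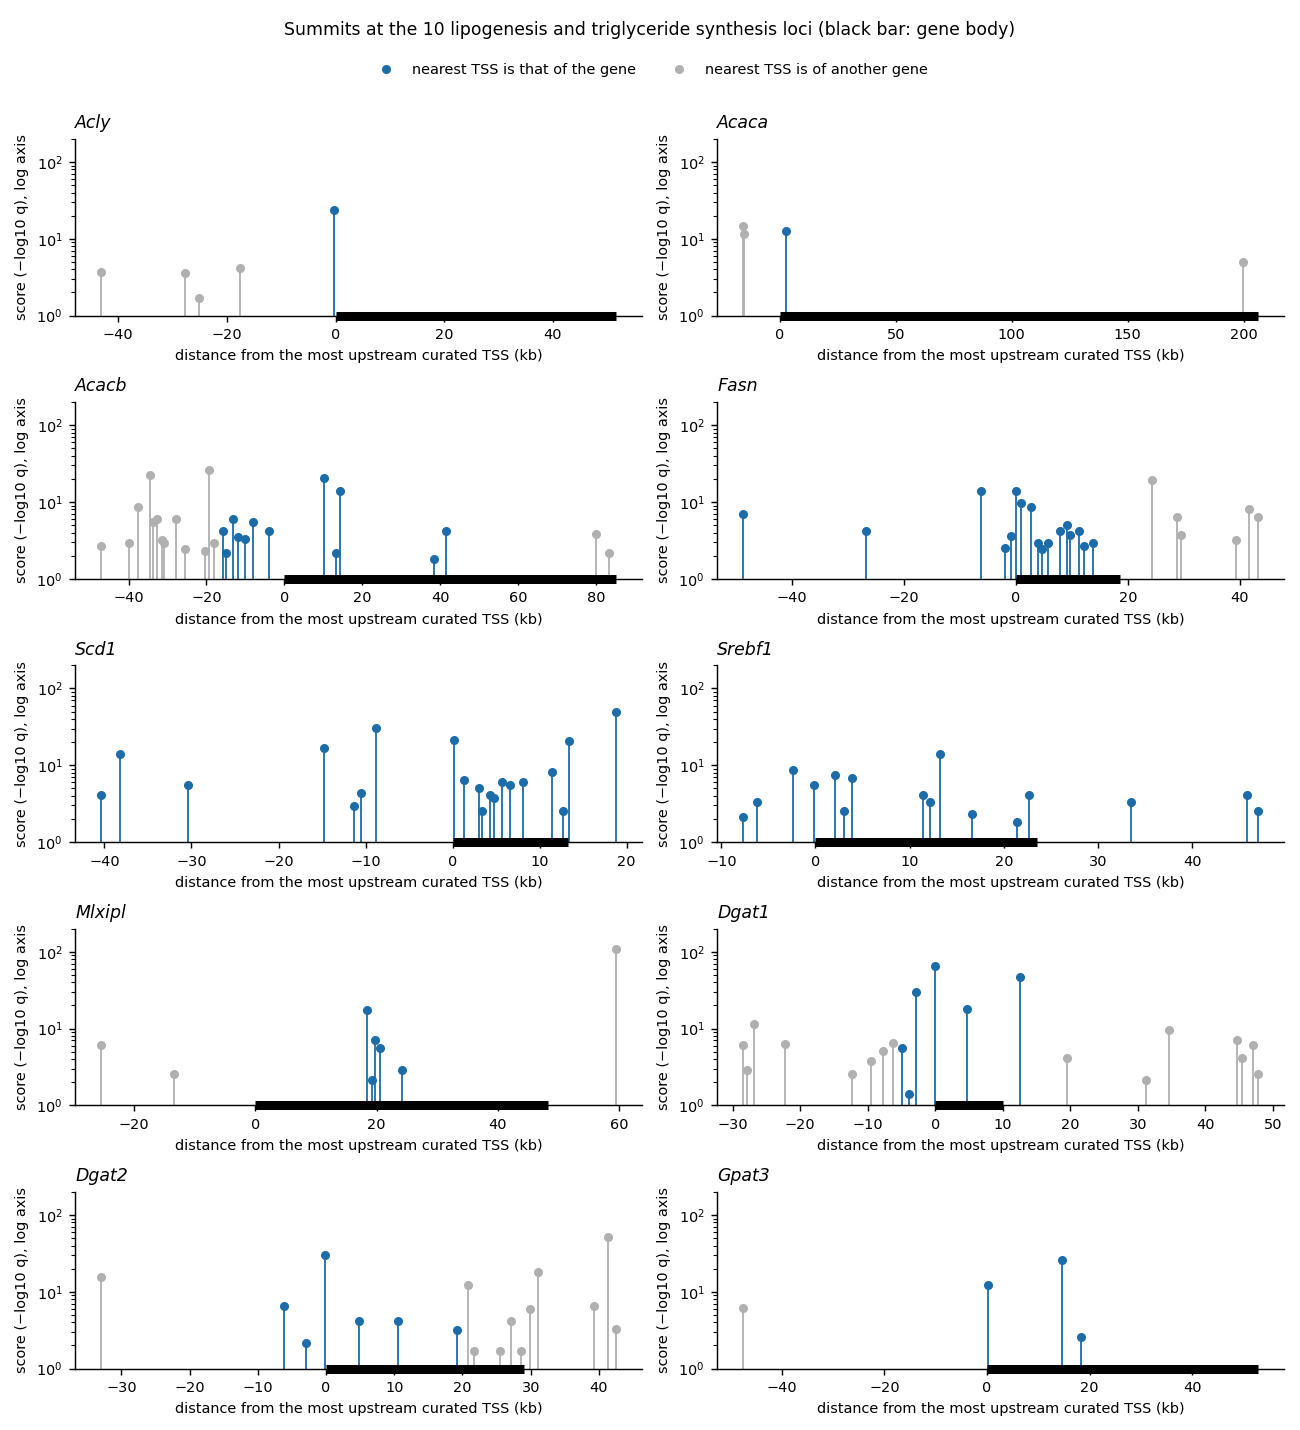
Score of each of the 145 summits (vertical log axis, −log10 of the q-value) against its distance in kb from the most upstream curated TSS of the gene, 1 panel per gene, with the gene body as a black bar at the base. Blue marks the 87 summits whose nearest curated TSS belongs to the gene and grey the 58 nearer to another gene, and the summits of Scd1 and Srebf1 are all blue while those of Acly, Acaca, Acacb, Dgat1 and Dgat2 are mostly grey.

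Among the enzymes of fatty acid synthesis, Acly (chromosome 11, 100476352 to 100528000, minus strand) had 5 summits in its window. Its promoter summit, 202 bp upstream of the TSS, had a score of 23.8 and ranked 2297 in the list. No summit lay in its gene body of 51649 bp. The other 4 summits of its window were weak, with scores from 1.71 to 4.16, and were nearer to Ttc25 or Cnp than to Acly.

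Acaca (chromosome 11, 84195438 to 84401651, plus strand) and Acacb (chromosome 5, 114165518 to 114250758, plus strand) encode the cytosolic and the mitochondrial acetyl-CoA carboxylase, and neither had a summit within 1 kb of its curated TSS. The nearest summit was 2718 bp downstream at Acaca, in an intron, with a score of 12.8. At Acacb it was 3884 bp upstream, with a score of 4.16. RefSeq also holds predicted mRNAs of both genes with other start sites, and summits were found at these. At Acaca, 1 of 6 predicted start sites had summits within 1 kb, at 74 bp and 689 bp upstream of it, with scores of 11.5 and 14.7. These summits lay 15259 and 15874 bp upstream of the curated start, nearer to the curated TSS of Gm11437, and with the one in the intron they were the 3 of the 4 Acaca summits that reached a score of 10. At Acacb all 3 predicted start sites had a summit within 107 bp. The summit 80 bp upstream of the first predicted start had a score of 26.1 and ranked 1969, with Ung as the gene of the nearest curated TSS, 15085 bp away, and the one 107 bp upstream of the third, in intron 1 of the curated mRNA, had a score of 20.3 and ranked 2981. These were 2 of the 4 summits of the Acacb window with a score of at least 10. The summit at the second predicted start, 30 bp downstream of it, was weak, at 3.32.

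With predicted mRNAs added, 9 of the 10 genes had a promoter summit, against 46.5% of all 21000 genes, and Mlxipl remained without one. The sequences at 2 of these alternative starts, and at the Mlxipl summit closest to a TSS, are shown because no curated promoter of Acaca, Acacb or Mlxipl held a summit. Capitals mark matches on either strand to the letters CCAAT for NF-Y, to GGGCGG for factors of the SP and KLF families, to CACGTG, the E-box, and to TTGCNNAA for C/EBP factors. The middle base is again the summit.
Acaca upstream summit, chr11:84179514-84179614, plus strand: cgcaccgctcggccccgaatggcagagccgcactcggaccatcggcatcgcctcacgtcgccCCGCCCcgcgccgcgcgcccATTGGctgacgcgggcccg
Acaca predicted start, chr11:84180079-84180279, plus strand: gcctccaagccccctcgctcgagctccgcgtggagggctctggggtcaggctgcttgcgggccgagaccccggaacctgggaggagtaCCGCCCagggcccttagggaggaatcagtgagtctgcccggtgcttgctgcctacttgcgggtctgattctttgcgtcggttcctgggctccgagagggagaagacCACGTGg
Acacb first predicted start, chr5:114146191-114146291, plus strand: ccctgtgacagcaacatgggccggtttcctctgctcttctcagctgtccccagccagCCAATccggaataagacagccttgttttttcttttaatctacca
Mlxipl intron summit, chr5:135108202-135108302, plus strand: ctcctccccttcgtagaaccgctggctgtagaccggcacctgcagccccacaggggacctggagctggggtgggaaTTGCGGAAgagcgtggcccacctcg

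The Acaca windows were rich in G and C and held GGGCGG on the opposite strand within 17 bases of each summit. The one at the predicted start also held CACGTG, 94 to 99 bases after the summit and downstream of the predicted start. The summit at the first predicted Acacb start had CCAAT 7 bases after it. The Mlxipl window held TTGCGGAA 26 bases after the summit.

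Fasn (chromosome 11, 120805958 to 120824547, minus strand) was covered by summits along most of its length. Its window held 23 summits, and 17 of them were nearest to the Fasn TSS. The promoter summit of score 14.0 was joined by a summit of 9.78 at 932 bp downstream and a weak one of 3.58 at 963 bp upstream, both just inside the limit of 1 kb. A summit of score 14.0 also lay 6256 bp upstream. The gene body of 18590 bp held 11 summits, or 5.92 per 10 kb, and 145 of all 21000 genes had at least as many. Of these 11, 7 lay in coding exons, between exon 5 and exon 34, with scores of 2.45 to 5.07. The intragenic summits were therefore mostly weak, with only those 932 bp and 2675 bp downstream of the TSS (9.78 and 8.65) above 5.07. The strongest summit of the Fasn window, at 19.4, was 3913 bp from the TSS of Dus1l.

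Scd1 (chromosome 19, 44394450 to 44407709, minus strand), the desaturase of the set, was the gene with the most summits per gene length. In 13260 bp it held 11 summits, or 8.30 per 10 kb. Its promoter summit lay in exon 1, 183 bp past the TSS, and it scored 21.6 and ranked 2731. All 20 summits of the window were nearest to Scd1, and no other gene had a curated TSS there. The highest scores lay outside the gene. A summit 18786 bp downstream of the TSS, beyond the end of the gene, had a score of 49.1 and ranked 574. Another, 8795 bp upstream, scored 30.9 and ranked 1497, and one just past the end of the gene scored 20.9. With those 14821 bp (16.7) and 38236 bp (14.0) upstream, 6 summits of the Scd1 window reached a score of 10, the most of any of the 10 genes.

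The regulators differed from each other. Srebf1 (chromosome 11, 60199084 to 60222581, minus strand) has 3 curated start sites, and each had a summit within 187 bp. The site of isoform d, the most upstream, had a summit 187 bp upstream with a score of 5.55. That of isoforms a and b had one 118 bp downstream, in exon 1, at 7.58. The site of isoform c had one 87 bp downstream, in exon 1, at 3.32, and a second of 4.16 upstream of it. The highest of these, 7.58, was the lowest top promoter score among the 7 genes with a promoter summit, and the 2 summits at the isoform c start were below a score of 5. The strongest summit of the Srebf1 window, at 14.0, was 1123 bp downstream of the isoform c start in intron 1 and 88 bp upstream of the start of a predicted mRNA. All 16 summits of the window were nearest to Srebf1, and 9 lay in its body.

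Mlxipl (chromosome 5, 135089890 to 135138201, plus strand) lacked a summit at both curated start sites and at its predicted ones. At the more upstream curated start the nearest summit was 13364 bp away with a score of 2.54. Downstream of the other curated start a group of 5 summits lay in introns 1 and 2, from 1361 to 7169 bp away. The first of these had a score of 17.4 and ranked 3738, and the others had scores from 2.15 to 7.05. By far the highest score in the Mlxipl window, 109.5 with a rank of 40, belonged to a summit 257 bp upstream of the TSS of the neighbouring gene Tbl2, 42538 bp from the nearer Mlxipl start.

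The genes of triglyceride synthesis all had a promoter summit. Dgat1 (chromosome 15, 76502012 to 76511994, minus strand) had the strongest of the 10, 2 bp upstream of the TSS, which scored 65.4 and ranked 246. Its locus held further strong summits at 12533 bp downstream of the TSS, past the end of the gene (46.7, rank 659), at 2900 bp upstream (30.1, rank 1558) and at 4686 bp downstream in intron 1, 655 bp upstream of a predicted start (18.1). Of the 21 summits of the window only 6 were nearest to Dgat1, and these included the 4 with the highest scores. The window held the start sites of 6 other genes, and 5 summits lay within 1 kb of the start of Hsf1, Scrt1, Tmem249 or Slc52a2.

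Dgat2 (chromosome 7, 99153663 to 99182713, minus strand) encodes an enzyme of the same reaction from an unrelated family. Its promoter summit lay 188 bp upstream, scored 30.4 and ranked 1553. The rest of the gene held 8 summits, of which only the one 20805 bp downstream in intron 4 reached a score of 10 (12.4), and it was nearer to the TSS of Uvrag. The highest score of the window, 51.2, was 164 bp from the TSS of Uvrag. Gpat3 (chromosome 5, 100846229 to 100899102, plus strand) had 4 summits. That at the promoter, 231 bp downstream in intron 1, scored 12.2, and the strongest, 14694 bp downstream in intron 3, scored 26.1 and ranked 1969.

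**Figure D2:**
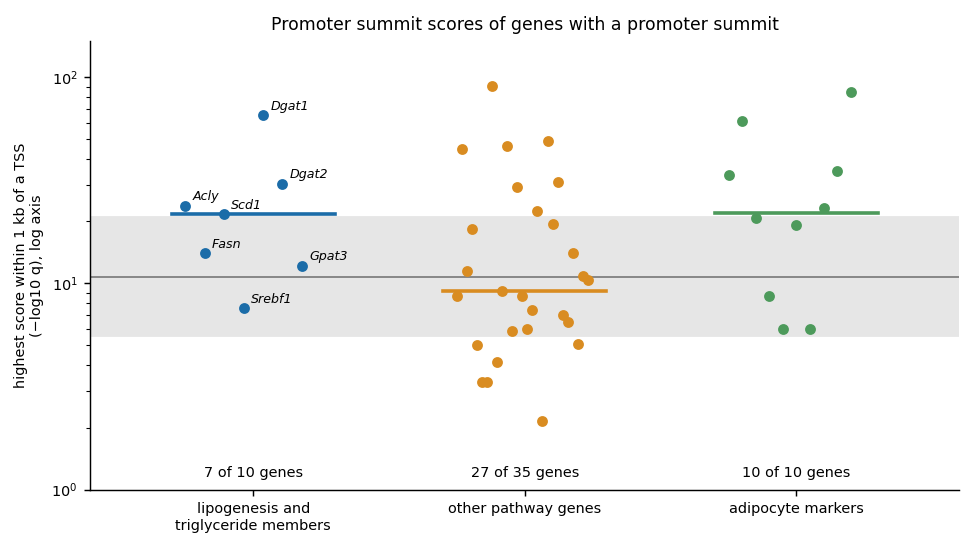
Highest score within 1 kb of a curated TSS (log axis, −log10 of the q-value) for genes with a promoter summit, 1 point per gene, with the median of each list as a short line. The grey band and line are the quartiles (5.55 and 20.9) and median (10.7) of all 9485 genes with a promoter summit. Medians were 21.6 for the 7 member genes, 9.21 for 27 other pathway genes and 22.0 for 10 adipocyte markers.

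Other genes of the pathway were taken as a fixed list of 35. A promoter summit was present at 27 of them (77.1%, against 45.2% of all genes), with a median score of 9.21, and at 13 the score was at least 10, against 23.5% of all genes. The highest scores were at Acsl1 (90.5, rank 84), which activates long-chain fatty acids, Insig1 (49.1), which holds SREBP in the endoplasmic reticulum, Gpat4 (46.1), the other acyltransferase of the endoplasmic reticulum that starts triglyceride synthesis, Acss2 (45.0), which makes acetyl-CoA from acetate, and Mbtps1 (30.9), a protease that cleaves SREBP. By role, 5 of 5 genes of elongation and desaturation, 11 of 13 regulators, 7 of 9 genes of the glycerol-3-phosphate route, 2 of 3 of substrate supply and 2 of 3 acyl-CoA synthetases had one. These groups hold 2 to 13 genes, too few to set any of them apart from the 45.2% of all genes without a test, and none was made. Both monoacylglycerol acyltransferases, Mogat1 and Mogat2, which serve another route to diacylglycerol, had none. The remaining genes without one were Me1, Acsl3, Gpat2, Agpat3, Mbtps2 and Mid1ip1. At Agpat3 a summit of score 2.53 lay 1083 bp away, just outside the limit. Mbtps2 and Mid1ip1 lie on chromosome X, where 12.6% of 902 genes had a promoter summit.

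Summits were dense around most of the 10 genes. The windows held a median of 16.5 summits, with a range from 4 (Acaca and Gpat3) to 27 (Acacb), against a median of 2 over all genes. Per 100 kb of window the median was 15.6, against 1.66 over all genes and 3.45 over the genes with a promoter summit. The 10 adipocyte markers had a median of 11 and the 35 other pathway genes one of 5. With every summit counted, Fasn had the highest density, 23.0 per 100 kb, which 420 of all genes reached, and Dgat1, Scd1 and Acacb followed with 21, 20 and 20. This order rests on weak summits. With a score of at least 5, the windows of Scd1 and Dgat1 held 13 summits each and those of Fasn and Acacb 10 each. With at least 10, the counts were 6 at Scd1, 5 at Dgat1, 4 at Acacb and 3 at Fasn. Acaca, with 1.56, lay below the median of all genes, and Gpat3 (3.89), Acly (4.92) and Mlxipl (6.84) were intermediate. The windows also held the start sites of other genes, with a median of 2 for the 10 genes, 1 for all genes and 2 for genes with a promoter summit, from 0 at Scd1 and Srebf1 to 6 at Dgat1. The part of these neighbours in the density was not tested. Windows of neighbouring genes overlap, so that genes are not independent.

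**Figure D3:**
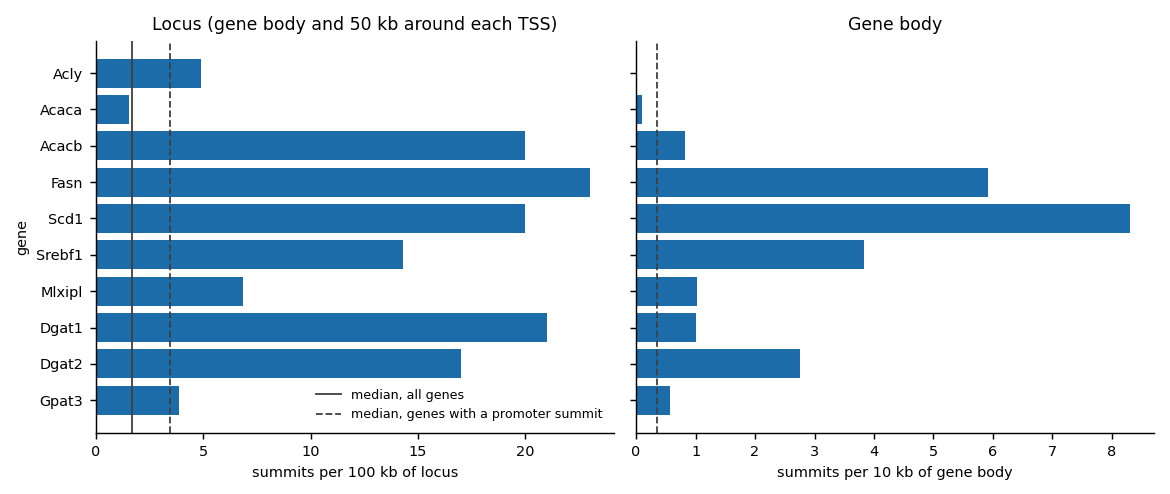
Summits per 100 kb of the window of the rule (left) and per 10 kb of gene body (right) for each of the 10 genes, as bars from 0. Lines mark the medians over all 21000 genes (solid, 1.66 left and 0 right) and over the 9485 genes with a promoter summit (dashed, 3.45 and 0.349), and the bars of Fasn and Scd1 are the longest for gene bodies.

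Over the 145 summits, 57 lay in the gene bodies, 41 of them in introns and 16 in exons. Another 63 lay upstream and 25 past the end of the gene. Scores had a median of 4.34, near the 5 of all summits, and 32 (22.1%) reached 10. The upper quartile was 8.65 for the 145 and 9.39 for all summits, so scores of 10 were not particular to these loci. The 12 summits (8.28%) within 1 kb of a TSS of their gene had a median score of 11 and a median GC content of 64.7% within 100 bp of the summit, and the 133 farther away had medians of 4.16 and 55.2%. The same medians over all promoter summits are not given here, so this contrast cannot be set apart from promoters in general. Masked repeats held 6 of the 145 (4.14%), against 12.9% of all summits. The nearest curated TSS was that of the member gene for 87 summits (60.0%), and 16 lay within 1 kb of the TSS of another gene. At the limit of 50 kb, the last summit inside the window was at 48780 bp (Fasn, score 6.88) and the first outside at 50014 bp (Scd1, score 1.74), with one at 50437 bp (Dgat1, 8.65).

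The short patterns of factors known to act on these genes were counted within 100 bp of each summit, on both strands. The SREBP letters TCACNCCAC occurred at 2 of the 145 summits, against 0.796% of all summits. These were the Srebf1 summit printed above and a weak summit in the last exon of Scd1, with a score of 2.53. CACGTG occurred at 7 (4.83%, against 4.68%), and a pair of CACGTG 5 bases apart, the layout of a carbohydrate response element, at 0 (against 0.00311%). CCAAT was found at 32 (22.1%, against 24.9%) and GGGCGG at 17 (11.7%, against 20.6%). Within 1 kb of a TSS, GGGCGG was present at 2 of the 12 summits of the 10 genes and at 45.0% of all 10375 promoter summits in the list. AGGTCA repeated with a gap of 4 bases (DR4), the LXR layout, was found at 4, against 2.64% of all summits. The same repeat with a gap of 1 base (DR1), the PPAR layout, was found at 7, against 4.07%. Up to 2 mismatches in the 12 bases were allowed in both. TTGCNNAA for C/EBP occurred at 14 (9.66%, against 10.9%) and the EBF pattern at 1, against 1.33%. The EBF pattern is TCCC and its reverse complement set apart by 2 bases of any kind. A pair of E-boxes also counts as E-boxes, and matches to the DR4 and DR1 layouts can overlap. For SREBP and LXR the counts are 2 and 4 summits, and no order can be read from them.

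**Figure D4:**
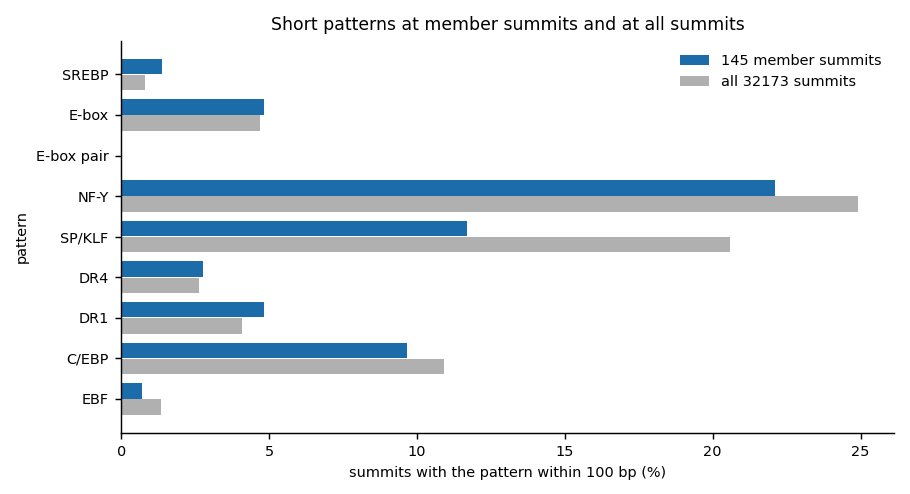
Share in percent of summits with each short pattern within 100 bp, for the 145 member summits (blue) and all 32173 summits (grey), as bars from 0. The shares lie close together for most patterns, and for SP/KLF the member share of 11.7% is below the 20.6% of all summits.

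Promoter sequences of 300 bases, 250 before to 50 after the TSS, were matched in RefSeq (GRCm38.p6) for 7 of the 10 genes, with 10 start sites. They were not matched for Scd1, Dgat1 and Dgat2. CCAAT was present in 6 of the 10, at Acly, Fasn, Acacb, Srebf1 and Mlxipl, against 37.4% of all 32851 promoters. GGGCGG was present in 5, at Acly, Gpat3, Srebf1 and Mlxipl, against 35.7%. At Fasn, the 3 CCAAT copies started 90, 62 and 59 bp upstream of the TSS, on either side of the summit at 64 bp. The SREBP letters were found in 1 of the 10, at the downstream Mlxipl start, 136 bp upstream, against 1.24% of all promoters. CACGTG was found in 1, at the upstream Mlxipl start, 98 bp upstream, against 7.15%. Neither Mlxipl start had a summit within 1 kb.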

How the data were processed

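ATAC-seq was performed on BAT nuclei, with 2 mice of each genotype. The authors aligned paired-end 50-bp reads to mm10 with BWA and called peaks with MACS2 (2.1.1 per the labels; ATAC mode per the study's methods), keeping those under a q-value of 0.05 and over a fold enrichment of 2.0. The deposited list holds 1 position per peak and its −log10 q-value, and no values per library. Depth is unknown, and neither a replicate error nor a test was possible. The size of any read shift in that mode, and whether duplicates or mitochondrial reads were removed, are not given in the sources used here, and each could change which summits are listed. The RNA-seq libraries were not analysed here.

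Summits were placed against RefSeq mRNAs of GRCm38 on chromosomes 1 to 19, X and Y. No summit lay past a chromosome end. Start sites of curated mRNAs were used, with predicted ones as an alternative. Other alternatives set a minimum score of 5 or 10, joined summits less than 500 bp apart, and changed the promoter window, the flank or the motif window. Assignment and pattern search were tested on simulated data. Python 3.11.15, numpy 2.4.6, pandas 2.3.3, pysam 0.24.0 and matplotlib 3.10.9 were used. All 10 genes are named, with each pathway gene that lacks a promoter summit, the 5 highest-scoring ones, and the neighbour nearest to a top summit. Other neighbours were named after their values were seen. Genes, lists and tests were chosen with earlier results of these data known. The sequences were chosen after their values were seen.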

Additional observations from a re-analysis of the deposited data

How the results depend on the processing

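No paired analysis was possible because no value belongs to a single mouse, and for that reason no replicate could be left out either. The number of the 10 genes with a promoter summit stayed between 5 (with the promoter cut to 100 bp on the downstream side, which loses Scd1 and Gpat3) and 10 (5 kb on each side), and their median promoter score between 15.7 and 23.8, over all 7 alternatives for each. A wider window takes in more summits at any gene. The shares over all genes given above hold for the 1 kb window, and those for the other windows are not given here. With minimum scores of 5 and 10, the summits at the 10 loci fell from 145 to 72 and 32, those nearest to the TSS of the gene from 87 to 42 and 21, and with at least 10 the other pathway genes with a promoter summit from 27 to 13, since fewer summits are left. Gene bodies with 1 kb on each side held 65 summits, 56 of them nearest to the gene. Summits with at least 1 of the 9 patterns numbered 66, and 41 with 50 bp on each side, 36 with a score of at least 5 and 35 among summits nearest to the gene. The share of all summits with any of the 9 patterns is not given here, so these counts do not set the member summits apart. Unknown depth limits what a missing summit means: it was not called, which does not show closed chromatin.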
